A study of Mus musculus with 4 samples.

Results

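The comparison described here sets the nasal mucosa of mice labelled Duox2-/- against that of wild-type mice after an instillation of PBS alone, with 1 array a side. These are 2 of the 4 Affymetrix mouse gene arrays of the series. The titles give the strain of the wild-type mice as C56BL/6 and name no strain for the mice labelled Duox2-/-. Both groups were 8 weeks old and received 25 ul of phosphate-buffered saline (PBS) in each nostril, and neither received flagellin. The tissue was collected 4 h later from the septum and the turbinates, lifted off cartilage and bone on both sides, and its total RNA was extracted with TRIzol. The remaining 2 arrays held the same genotypes after the same volume of flagellin at 5 ug/ml, the protein of bacterial flagella. They share no array with the PBS pair and are given beside it. How the Duox2 allele was made, whether the wild-type mice were littermates, and whether an array holds 1 mouse or a pool are not given in the sources used here.

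Duox2 is a dual oxidase, a membrane enzyme of the NADPH oxidase family that releases hydrogen peroxide outside the cell and needs its partner Duoxa2 to reach the surface. It is best known in the thyroid, where the peroxide is used to make thyroid hormone. At mucosal surfaces the peroxide feeds lactoperoxidase and takes part in defence and signalling, and the mucosa sampled here holds olfactory and respiratory epithelium above glands and connective tissue.

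All values below are log2 RMA values, and every difference is the array labelled Duox2-/- minus the wild-type array, so that 1 is 2-fold higher and -1 is 2-fold lower. In each pair of values the wild-type array comes first. A gene stands for the 1 probe set that maps to it alone and has the highest mean over the 4 arrays, which gave 19938 genes. The word bright is kept for the 12471 genes with at least 1 of their 4 values at or above 6.52, the median over the whole table, and other genes are called dim. There is 1 array per group and so no replicate spread: the number of arrays limits the precision, no test was possible, and genes are described by size. Over the bright genes the robust SD of single-gene differences was 0.211. The wild-type PBS array and the PBS array labelled Duox2-/- had medians of 6.48 and 6.56 and interquartile ranges of 2.79 and 2.54, and their Pearson's r over all probe sets, which are no replicates of each other, was 0.979.

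The targeted gene did not separate the labels. Duox2 read 4.95 and 5.23 in the PBS pair and 5.12 and 5.50 in the flagellin pair, and it was dim in all 4 arrays. The values of the arrays labelled Duox2-/- were thus the higher ones, by 0.27 under PBS as deposited and by 0.04 after cyclic loess normalisation, and the array labelled Duox2-/- is named as such for this reason. The sources used here do not say whether the probe set reads the changed stretch of the gene, so it may check nothing. Its maturation factor Duoxa2 read 5.59 and 5.27 in the PBS pair and 5.88 and 5.81 in the flagellin pair, and the paralog Duox1 read 5.60 and 5.75 under PBS. Lpo, lactoperoxidase, was at 5.15 and 5.55, also dim. Of the 5 genes on each side of Duox2 in RefSeq's gene order, none reached 1.5-fold under PBS, with differences from -0.32 for Duoxa2 to 0.37 for Patl2. B2m, 3 places away and the light chain of MHC class I, read 10.87 and 10.83 in the PBS pair and 11.68 and 10.32 in the flagellin pair.

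Among the bright genes 141 were at least 2-fold higher in the array labelled Duox2-/- (1.13% of 12471) and 35 were at least 2-fold lower (0.281%). Olfactory receptors made up 72 of the 141 and vomeronasal receptors 6. A gene that is dim in the wild-type PBS array can pass the brightness level through the array in which it is high. At a size of 1.5-fold the counts were 389 higher (3.12%) and 249 lower (2%). Without receptors there were 63 higher (0.523% of 12043) and 35 lower (0.291%). The split moved with the scaling: 80.1% of the genes past 2-fold were higher as deposited, and 69.4% once each array was centred on its median. The difference also depended on the level of the gene. The median was 0.26 for genes with a PBS mean between 5 and 6, and -0.08 for those between 8 and 9. Cyclic loess, which removes such a trend, gave 0.06 and -0.02 in the same bands. Of all 19938 genes, dim ones included, 56.3% were above 0 and 43.6% below. At 2-fold 1.34% were higher and 0.226% lower, and at 1.5-fold 5.49% were higher and 1.55% lower. The counts of list members below are to be read beside these shares.

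**Figure D1:**
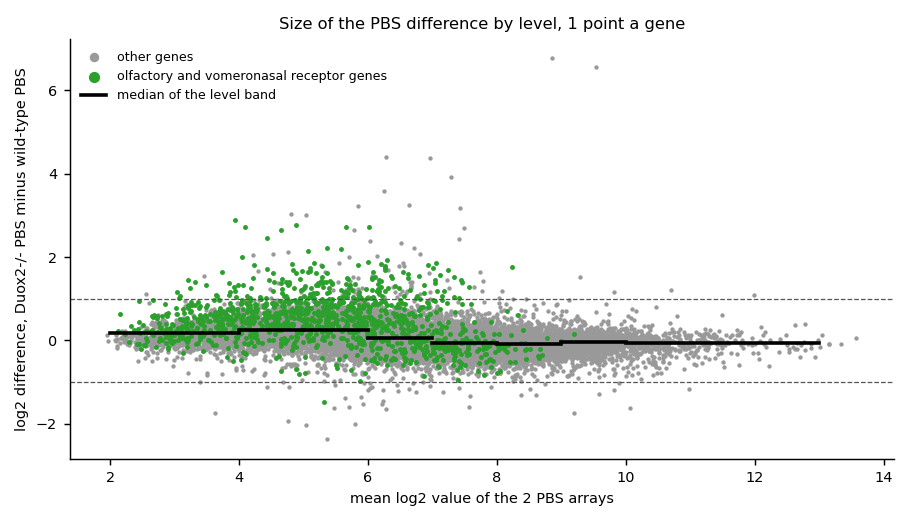
Each point is 1 of 19938 genes, plotted by its mean log2 value in the 2 PBS arrays (x axis) and its log2 difference, Duox2-/- PBS minus wild-type PBS (y axis); dashed lines mark 2-fold, black bars the median of each level band, and green points receptor genes. The dim bands lie above 0, at 0.26 between 4 and 6, and a few genes stand far above the rest, up to 6.77 for Bpifb9a.

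The gene differences that stood farthest out were those of secretory BPIF genes, of skeletal muscle and of tooth enamel on the higher side, and of Jchain, airway proteases, chitinase-like and acute phase proteins, interferon-stimulated genes and keratins on the lower side. Bpifb9a was 109-fold higher and Myh1 21.3-fold higher, while the lowest named gene, Jchain, differed by -2.38. Myh1 was bright only through the PBS array labelled Duox2-/-, and Jchain only through the wild-type PBS array.

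**Figure D2:**
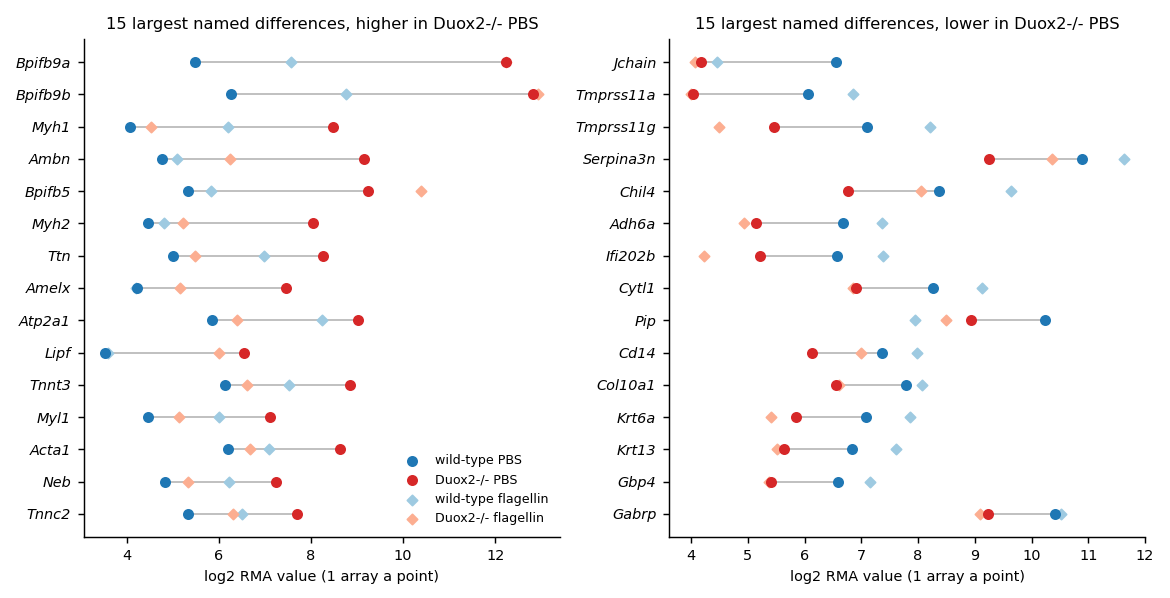
The 15 named genes with the largest positive (left) and the 15 with the largest negative (right) PBS difference, each with its log2 RMA value (x axis) in the 4 arrays, 1 array a point; grey lines join the 2 PBS arrays. The muscle genes are high in the Duox2-/- PBS array and not in the Duox2-/- flagellin array (Myh1 at 8.49 and 4.53), while Bpifb9a and Bpifb9b are high in both.

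The 2 largest of all differences were those of Bpifb9a and Bpifb9b, and a further gene of the same family, Bpifb5, was also far higher. They encode secreted BPIF proteins, a family related to the bactericidal/permeability-increasing protein that binds lipids and microbial products in mucosal fluid. Bpifb9a read 5.47 and 12.24 in the PBS pair and 7.56 and 12.24 in the flagellin pair, a difference of 6.77. Bpifb9b read 6.26 and 12.83 in the PBS pair and 8.76 and 12.94 in the flagellin pair, a difference of 6.57. Bpifb5 read 5.33 and 9.25 in the PBS pair and 5.82 and 10.39 in the flagellin pair, a difference of 3.91. For each of the 3 genes both arrays labelled Duox2-/- lay above both wild-type arrays, as in 18.3% of bright genes. The flagellin pair differed by 4.68, 4.18 and 4.56.

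These 3 genes are neighbours. In RefSeq's order of the genes measured here, the BPIF cluster runs from Bpifb2 to Bpifb9b, interrupted by Cdk5rap1, and Bpifb5, Bpifb9a and Bpifb9b are its last 3 members. The gene before them, Cdk5rap1, differed by -0.41 and the gene after them, Cbfa2t2, by 0.01. The other BPIF genes of the cluster lay between -0.50 for Bpifb1, a major protein of airway secretions, and 0.36 for Bpifa5. Over the 15 matched BPIF genes the median was therefore 0.00, against 0.04 over all genes, and it turned to -0.09 after cyclic loess; 3 were at least 2-fold higher (1.34% of all genes were) and none 2-fold lower (0.226%). Of the 15, 8 were bright.

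Bpifb9a and Bpifb9b are close copies, and probes may not separate them, so their values are not 2 independent readings. The sequences before their start sites show how close they are. They are printed with the TATA box, TATAAA, in capitals, as the 250 bases before the start in RefSeq's GRCm38.p6, both on the plus strand.
Bpifb9a, chr2:154257629-154257878: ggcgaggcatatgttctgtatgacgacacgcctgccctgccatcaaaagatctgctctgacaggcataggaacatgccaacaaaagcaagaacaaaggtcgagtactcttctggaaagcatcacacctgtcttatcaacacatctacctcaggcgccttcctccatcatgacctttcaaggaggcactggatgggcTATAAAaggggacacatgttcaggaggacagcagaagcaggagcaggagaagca
Bpifb9b, chr2:154306994-154307243: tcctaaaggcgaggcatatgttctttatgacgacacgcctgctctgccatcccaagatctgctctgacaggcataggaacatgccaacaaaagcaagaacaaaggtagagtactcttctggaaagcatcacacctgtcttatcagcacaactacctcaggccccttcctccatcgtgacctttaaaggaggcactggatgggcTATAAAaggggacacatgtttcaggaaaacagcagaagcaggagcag
Of 242 aligned bases 230 were identical. A TATAAA on either strand is held by 12.4% of the 32851 promoters of the same length, and a match is a description of the letters only.

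Secretions of glands did not move as 1 group. Lipf, gastric lipase, read 3.54 and 6.54 in the PBS pair and 3.60 and 6.00 in the flagellin pair, and was higher in both arrays labelled Duox2-/-, although only the PBS one reached the brightness level. Dcpp3, a demilune cell and parotid protein with close copies that probes may not separate, read 6.01 and 7.19 in the PBS pair and 6.03 and 8.06 in the flagellin pair, with a difference of 1.18. Mup5, a major urinary protein of the lipocalin family that binds pheromones, was already abundant and read 11.43 and 12.53 in the PBS pair and 10.70 and 12.64 in the flagellin pair. Pip, the prolactin-induced protein of gland fluids, was lower, at 10.23 and 8.94 in the PBS pair and 7.94 and 8.49 in the flagellin pair, and only the wild-type PBS array reached 10. Lyz2, the lysozyme of macrophages, differed by -1.04 and Azgp1, a zinc-binding glycoprotein of secretions, by -0.65. Over 22 matched gland secretion genes the median was -0.05, with 3 past 2-fold on the higher side and 2 on the lower. The odorant-binding proteins and lipocalins had a median of -0.09 over 10 genes, and only Mup5 of them was past 2-fold. The 9 secretoglobins had a median of 0.14 as deposited and of -0.04 after cyclic loess, and none reached 1.5-fold.

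Genes of the contractile fibres of skeletal muscle, a tissue that the labels do not name, were higher in the PBS array labelled Duox2-/-. Myh1, a fast myosin heavy chain, read 4.07 and 8.49 in the PBS pair and 6.20 and 4.53 in the flagellin pair. Myh2, the heavy chain of the intermediate fast fibres, read 4.47 and 8.04 in the PBS pair and 4.81 and 5.23 in the flagellin pair. Ttn, the giant spring protein titin, read 5.00 and 8.26 in the PBS pair and 6.98 and 5.48 in the flagellin pair. Atp2a1, the calcium pump of fast fibres, read 5.84 and 9.02 in the PBS pair and 8.24 and 6.39 in the flagellin pair. In each of these the PBS array labelled Duox2-/- was the highest of the 4 and the wild-type PBS array the lowest.

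Of 26 matched muscle genes, all 26 were above 0 (56.3% of all genes were), 17 were at least 2-fold higher and none lower, with a median of 1.395. Only 15 of the 26 were bright, and 7 of those only through the array labelled Duox2-/-. The members nearest 0 were those of slow fibres, Tnnt1 at 0.07, Tnni1 at 0.15 and Myh7 at 0.25, all dim. Averaged over the list, the level was 5.31 and 6.96 in the PBS pair and 6.17 and 5.86 in the flagellin pair, wild type first. The order of the genotypes was thus the opposite in the flagellin pair, where the median difference was -0.097. In bulk tissue a different share of muscle cells and a different level per cell cannot be told apart.

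Enamel and dentine genes followed. Ambn, ameloblastin of the enamel matrix, read 4.77 and 9.15 in the PBS pair and 5.09 and 6.24 in the flagellin pair, and Amelx, amelogenin, read 4.23 and 7.46 in the PBS pair and 4.20 and 5.14 in the flagellin pair. Dspp, the precursor of the main dentine proteins, read 5.77 and 7.85 in the PBS pair and 5.40 and 6.17 in the flagellin pair. Enam, a further enamel protein, was higher by 3.03 but dim. All 10 matched tooth genes, of which Phex and Dmp1 are also on the bone list, were above 0 (56.3% of all genes were). At least 2-fold higher were 5 (1.34% of all genes were), and the median was 1.17. Of the 10, 5 were bright, 3 of them only in the PBS array labelled Duox2-/-. Unlike muscle, the tooth genes were also higher in the flagellin pair, with a median of 0.62 and Ambn at 1.15.

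Bone and matrix genes were higher by less. Ibsp, bone sialoprotein, read 10.10 and 11.31 in the PBS pair and 10.64 and 10.88 in the flagellin pair, and Phex, a peptidase of osteoblasts and odontoblasts, read 8.52 and 10.06 in the PBS pair and 9.01 and 9.06 in the flagellin pair. Sp7, the transcription factor of osteoblasts, and Ctsk, the collagen-cutting protease of osteoclasts, both differed by 0.81. All 8 matched bone genes were above 0, with a median of 0.77, 2 at least 2-fold and 6 at least 1.5-fold higher (5.49% of all genes were). The 15 collagen genes had a median of 0.41, with none past 2-fold and 5 past 1.5-fold, led by Col6a3 at 0.90, and Col1a1, the main collagen of bone and skin, at 0.41. A further set of 13 matrix genes, chosen after their values were seen, ranged from 0.36 for Bgn to 1.44 for Tnn, a tenascin. It included Vcan, the proteoglycan versican, at 1.27, Lox, which cross-links collagen, at 1.01, and Eln, elastin, at 0.99. The fibroblast list had a median of 0.31 over 13 genes and the smooth muscle and pericyte list one of 0.27 over 11, with none past 2-fold. In the flagellin pair the collagen median was -0.04 and the bone median 0.05.

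Cartilage genes went both ways. Of 14, 8 were above 0, with a median of 0.14 that turned to -0.05 after cyclic loess. The 2 at least 1.5-fold higher were Col11a1 and Col11a2, collagen chains of cartilage fibrils, at 0.85 and 0.64, and Comp, a cartilage matrix protein, was at 0.48. The single gene past 1.5-fold on the lower side was Cytl1, a small secreted protein of chondrocytes, at 8.26 and 6.91 in the PBS pair and 9.12 and 6.85 in the flagellin pair. Outside the list, Col10a1, the collagen of hypertrophic cartilage, was lower, at 7.78 and 6.56 in the PBS pair and 8.07 and 6.61 in the flagellin pair, and so was Ucma, which cartilage secretes and which was chosen after its values were seen, at 6.99 and 5.92 in the PBS pair. For Cytl1 and Col10a1 both arrays labelled Duox2-/- lay below both wild-type arrays, as in 39.2% of bright genes. The part of muscle, tooth and bone RNA in the other differences was not tested; when the muscle, tooth, bone, cartilage, gland and squamous lists were left out, 116 genes were at least 2-fold higher and 28 lower.

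**Figure D3:**
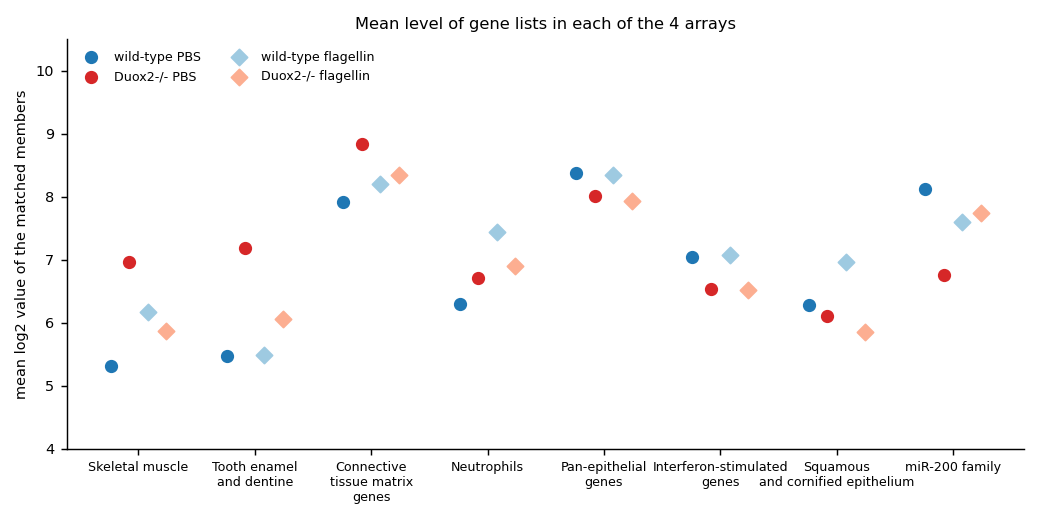
Mean log2 value of all matched members of 8 gene lists (y axis) in each of the 4 arrays, 1 point an array. Muscle and tooth genes peak in the Duox2-/- PBS array (6.96 and 7.19), and the miR-200 family is lowest there (6.75), while interferon-stimulated genes are lower in both Duox2-/- arrays.

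The genes of the miR-200 family, chosen for description after their values were seen, were lower in the PBS array labelled Duox2-/-. These microRNAs are made in epithelial cells, where they restrain the transcription factors Zeb1 and Zeb2 and thereby help keep the epithelial state. The family lies in a pair of clusters and carries either of 2 seeds, the bases 2 to 8 that pair with targets. The 3p strands, which act in this way, are printed from RefSeq's GRCm38.p6 with the seed in capitals, all from the minus strand, to show which members share it.
miR-200a-3p, chr4:156054911-156054932: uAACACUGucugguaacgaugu
miR-141-3p, chr6:124717917-124717938: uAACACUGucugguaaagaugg
miR-200b-3p, chr4:156055685-156055706: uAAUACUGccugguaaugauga
miR-200c-3p, chr6:124718324-124718346: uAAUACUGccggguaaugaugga
The first pair shares AACACUG and the second AAUACUG, so each seed comes from both clusters.

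Mir141 read 6.81 and 4.80 in the PBS pair and 5.94 and 6.20 in the flagellin pair, a difference of -2.02. It was bright only through the wild-type PBS array. Mir200a read 9.25 and 7.95 in the PBS pair and 8.96 and 8.80 in the flagellin pair, and Mir200b, from the same cluster, 9.03 and 7.72 in the PBS pair and 8.78 and 8.80 in the flagellin pair. Mir200c, the cluster partner of Mir141, read 7.40 and 6.55 in the PBS pair and 6.70 and 7.18 in the flagellin pair. Mir429, a further member of the family on chr4, was not matched to a measured gene. All 4 matched genes were lowest in the PBS array labelled Duox2-/-. The difference did not recur in the flagellin pair, where it lay between -0.16 and 0.48. The array measures the gene's transcript, precursor included, so these are not levels of the mature microRNAs.

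The targets Zeb1 and Zeb2 differed by 0.01 and 0.09. Genes that all epithelia share, also chosen after values were seen, leaned lower: of 15, 14 were below 0 (43.6% of all genes were), with a median of -0.41 and none past 2-fold. Prss8, a membrane protease that activates the sodium channel, differed by -0.78, Grhl2, a transcription factor of epithelial identity, by -0.52, Cdh1, E-cadherin, by -0.41 and Epcam, an epithelial adhesion protein, by -0.04. In the flagellin pair the epithelial median was -0.42, so these genes were lower in both pairs while the miR-200 genes were not.

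Interferon-stimulated genes encode sensors, guanosine triphosphatases and chemokines that cells make when interferon signals through STAT and IRF factors. They were lower in the array labelled Duox2-/- as a list. Ifit3, which binds viral RNA with its partners, read 6.60 and 5.45 in the PBS pair and 6.54 and 5.36 in the flagellin pair. Iigp1, an immunity-related guanosine triphosphatase, read 6.54 and 5.52 in the PBS pair and 7.52 and 5.36 in the flagellin pair. Gbp3, a guanylate-binding protein, read 6.999 and 6.09 in the PBS pair and 7.30 and 6.00 in the flagellin pair. Irf7, which drives interferon genes, read 7.26 and 6.41 in the PBS pair and 6.95 and 6.68 in the flagellin pair, and Rtp4, an interferon-induced receptor transporter protein, 7.96 and 7.14 in the PBS pair and 7.50 and 6.73 in the flagellin pair. In all 5 both arrays labelled Duox2-/- lay below both wild-type arrays, a pattern found in 39.2% of bright genes.

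Of 32 matched interferon-stimulated genes, 28 were below 0 and the median was -0.56, or -0.56 after cyclic loess. Of the 32, 3 were at least 2-fold lower and 15 at least 1.5-fold lower (1.55% of all genes were), and none was 1.5-fold higher. The third past 2-fold, Mx1, was dim and differed by -1.61. Those above 0 were Oas2, Cxcl9, Oas3 and Zbp1, all dim, at up to 0.44. The list median was -0.46 in the flagellin pair, which shares no array with the PBS pair. Outside the list, Gbp4, a further guanylate-binding protein, read 6.60 and 5.40 in the PBS pair and 7.15 and 5.37 in the flagellin pair, and Ifi202b, an interferon-inducible protein that binds DNA, read 6.58 and 5.21 in the PBS pair and 7.38 and 4.24 in the flagellin pair.

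Some promoters of this list hold a motif of the interferon response. The interferon-stimulated response element core GAAANNGAAA, read on both strands, was present in the 250 bases before the start of 10 of the 23 listed genes that RefSeq's promoter table held, 43.5%. It was present in 3.46% of all 27025 genes there and in 2.98% of all 32851 promoters. The list was chosen as interferon-stimulated, so its share of matches does not bear on the PBS difference. Irf7 at -0.86 and Irf9 at -0.76 had no match, and Oas3 at 0.19 had one. The promoters of Ifit3 and Gbp3 are shown since both genes were among the lowest of the list; capitals mark the motif, here on the strand opposite to the one printed, and in Gbp3 a pair of matches overlap. Both are on the plus strand of GRCm38.p6.
Ifit3, chr19:34583279-34583528: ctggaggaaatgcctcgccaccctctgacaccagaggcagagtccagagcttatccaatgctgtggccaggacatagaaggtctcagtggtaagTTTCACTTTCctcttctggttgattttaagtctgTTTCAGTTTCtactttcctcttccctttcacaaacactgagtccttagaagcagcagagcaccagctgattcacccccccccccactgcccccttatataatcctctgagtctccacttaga
Gbp3, chr3:142559794-142560043: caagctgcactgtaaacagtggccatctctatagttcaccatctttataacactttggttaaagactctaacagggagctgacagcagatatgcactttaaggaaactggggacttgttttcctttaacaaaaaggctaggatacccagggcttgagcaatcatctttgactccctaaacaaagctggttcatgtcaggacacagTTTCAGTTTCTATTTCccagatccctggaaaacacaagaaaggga
A match is a description of these letters and not a measured binding site.

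Antigen presentation leaned the same way by less. Cd74, the invariant chain of MHC class II, read 8.05 and 7.37 in the PBS pair and 8.70 and 6.87 in the flagellin pair, and H2-Ab1, a class II chain, 8.82 and 8.23 in the PBS pair and 9.54 and 7.50 in the flagellin pair. Over 8 class II genes the median was -0.26 under PBS and -1.14 in the flagellin pair, and 2 were at least 1.5-fold lower under PBS. For class I loading and the immunoproteasome, 10 of 11 genes were below 0 (43.6% of all genes were), with a median of -0.24. The exception was Nlrc5, the regulator of MHC class I genes, at 0.62, which became 0.07 when all its probe sets were averaged.

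Enzymes of oxidant and xenobiotic defence, abundant in nasal mucosa, were lower. Gpx2, the glutathione peroxidase of epithelia that removes peroxide, read 9.09 and 7.94 in the PBS pair and 9.08 and 7.89 in the flagellin pair. Gsto1, an omega-class glutathione transferase, read 11.57 and 10.39 in the PBS pair and 11.75 and 10.20 in the flagellin pair. Aldh3a1, an aldehyde dehydrogenase and target of NRF2, the regulator of oxidant defence, read 10.42 and 9.57 in the PBS pair and 10.16 and 8.91 in the flagellin pair. Gstp1, a further glutathione transferase, read 9.56 and 8.75 in the PBS pair and 9.60 and 8.52 in the flagellin pair. Each of these 4 genes was lower in both arrays labelled Duox2-/- than in both wild-type arrays, a pattern found in 39.2% of bright genes.

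Of 23 matched NRF2 targets 22 were below 0 (43.6% of all genes were), with a median of -0.40 and none past 2-fold. At least 1.5-fold lower were 4 (1.55% of all genes were), among them Cbr3, a carbonyl reductase, at -0.82 and Ftl1, ferritin light chain, at -0.61. Slc7a11, the cystine importer, was at -0.52, Nqo1, a quinone reductase, at -0.40, and Nfe2l2, which encodes NRF2, at -0.09. The median after cyclic loess was -0.35, and it was -0.43 in the flagellin pair.

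Peroxide-removing enzymes had a median of -0.15 over 18 genes, with Gpx2 the single gene past 1.5-fold; Cat, catalase, was at -0.56 and Sod1, superoxide dismutase, at -0.34. Cytochrome P450 enzymes, which oxidise inhaled chemicals, had a median of -0.29 over 18, with 7 at least 1.5-fold lower (1.55% of all genes were). Cyp4a12a and Cyp4a12b, close copies that hydroxylate fatty acids, both differed by -0.83, Cyp2b10 by -0.73 and Cyp1a2, of the olfactory mucosa's supporting cells, by -0.67. Conjugating and aldehyde-oxidising enzymes had a median of -0.45 over 18, with 5 at least 1.5-fold lower (1.55% of all genes were). Adh6a, an alcohol dehydrogenase outside these lists, read 6.68 and 5.15 in the PBS pair and 7.36 and 4.93 in the flagellin pair. The phagocyte NADPH oxidase list, which also holds Nox1, Nox4, Noxo1 and Mpo, had a median of 0.20 as deposited and 0.07 after cyclic loess. Cybb, the catalytic subunit of the phagocyte oxidase, was at -0.25.

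**Figure D4:**
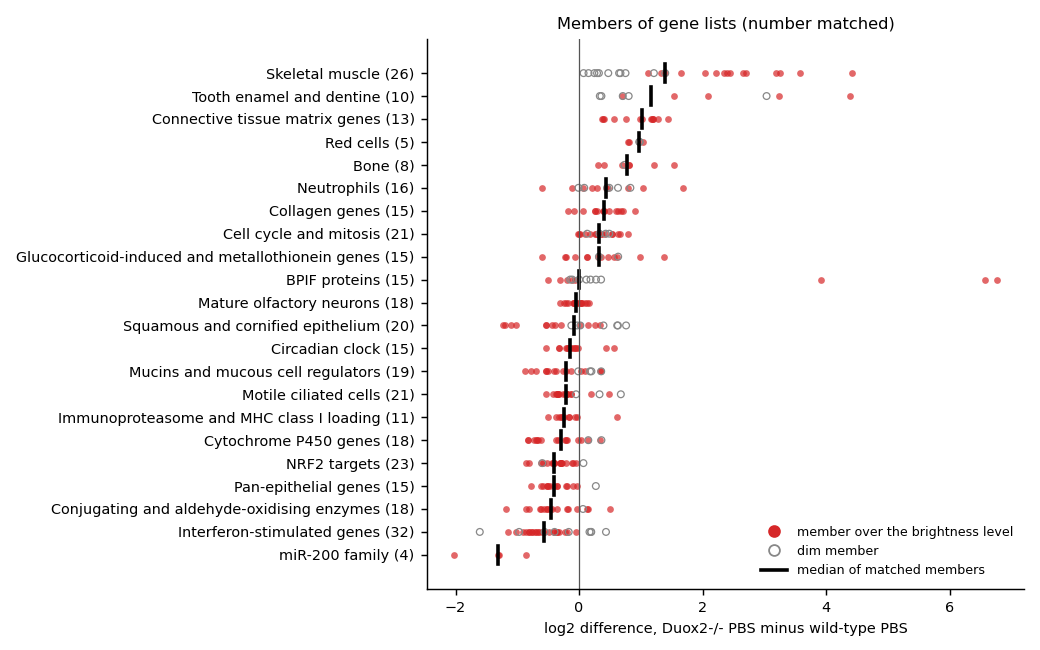
Log2 difference, Duox2-/- PBS minus wild-type PBS (x axis), of the matched members of 22 gene lists (rows, number matched in brackets): filled points are bright members, open points dim ones and black bars the medians. All muscle, tooth and bone members lie above 0, and interferon-stimulated, NRF2 and epithelial genes lie mostly below it, at medians of -0.56, -0.40 and -0.41.

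Several keratins and proteases of stratified epithelium were lower. Krt6a, a keratin of stressed and wound-edge epithelium, read 7.08 and 5.85 in the PBS pair and 7.86 and 5.41 in the flagellin pair, and Krt6b, its close copy, read 7.51 and 6.41 in the PBS pair and 8.73 and 5.07 in the flagellin pair. Krt13, a keratin of non-cornified squamous epithelium, read 6.83 and 5.64 in the PBS pair and 7.61 and 5.51 in the flagellin pair, and Krt4, its partner, read 7.20 and 6.18 in the PBS pair and 7.38 and 5.59 in the flagellin pair. Krt5, the keratin of basal cells and far brighter, read 10.40 and 9.38 in the PBS pair and 10.55 and 8.26 in the flagellin pair. For each of these 5 keratins both arrays labelled Duox2-/- lay below both wild-type arrays, as in 39.2% of bright genes. The difference of each was larger in the flagellin pair.

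The other members were mixed. Of 20 squamous genes 4 were at least 2-fold lower and 3 at least 1.5-fold higher, those 3 dim, with a median of -0.08 over all 20 (-0.27 after cyclic loess) and of -0.44 over the 13 bright ones; in the flagellin pair the median was -1.04. All 11 basal cell genes were below 0 (43.6% of all genes were), with a median of -0.17 and Krt5 alone past 2-fold. Krt14 and Krt15, further basal keratins, differed by -0.76 and -0.69.

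Tmprss11a, of the airway family of membrane serine proteases, read 6.06 and 4.03 in the PBS pair and 6.86 and 3.99 in the flagellin pair, and its neighbour Tmprss11g read 7.11 and 5.46 in the PBS pair and 8.21 and 4.49 in the flagellin pair. The pair stood out within its cluster: of the 5 other Tmprss11 genes measured, Tmprss11d was at -0.45 and Tmprss11b at -0.38, while Tmprss11c, Tmprss11f and Tmprss11e lay between 0.16 and 0.54. Klk14, a kallikrein protease of surface epithelium, was lower by less, at 10.42 and 9.66 under PBS. Klk12, a further kallikrein, was higher, at 5.60 and 6.26 in the PBS pair and 5.82 and 6.62 in the flagellin pair. Of 17 matched Tmprss11 and kallikrein genes 11 were above 0 (56.3% of all genes were) and 5 were bright. Their median was 0.16 as deposited and -0.04 after cyclic loess, and 2 were at least 2-fold lower (0.226% of all genes were). Gabrp, a GABA receptor subunit found in epithelia, read 10.41 and 9.23 in the PBS pair and 10.51 and 9.09 in the flagellin pair.

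Several secreted defence proteins were lower. Serpina3n, an acute phase protease inhibitor, read 10.89 and 9.26 in the PBS pair and 11.62 and 10.35 in the flagellin pair. Chil4, a chitinase-like protein of airway and macrophages, read 8.37 and 6.76 in the PBS pair and 9.64 and 8.05 in the flagellin pair. Hp, haptoglobin, read 8.86 and 7.88 in the PBS pair and 9.02 and 8.00 in the flagellin pair, and Lcn2, which withholds iron from bacteria, read 9.88 and 9.28 in the PBS pair and 11.61 and 10.60 in the flagellin pair. For the first 3 genes the difference was -1.63, -1.61 and -0.98 under PBS and -1.26, -1.59 and -1.02 after flagellin. Over 25 antimicrobial and acute phase genes the median was 0.11 and turned to -0.07 after cyclic loess, with 3 at least 2-fold lower and 1, Ngp of neutrophils, higher.

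Mucus genes leaned lower. Muc5b, the main gel-forming mucin of the nose, read 10.93 and 10.15 in the PBS pair and 10.93 and 10.51 in the flagellin pair, and Tff2, a trefoil peptide secreted with mucins, read 8.39 and 7.51 in the PBS pair and 7.96 and 7.94 in the flagellin pair. Muc4, a membrane mucin, read 8.14 and 7.45 in the PBS pair and 8.79 and 7.32 in the flagellin pair. Over 19 mucin genes the median was -0.21, none was past 2-fold and 3 were at least 1.5-fold lower. Secretory airway cells had a median of -0.23 over 11 genes. Motile cilia genes had one of -0.22, with 17 of 21 below 0 (43.6% of all genes were). Ion and water channels had a median of -0.18 over 20: Aqp1, a water channel of vessels and glands, differed by -0.84, Aqp5, the gland water channel, by -0.60 and Cftr, the chloride channel, by -0.30.

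The list of IgA transport and plasma cell genes, which also holds the B cell gene Ms4a1, went both ways. Jchain, which joins IgA into dimers for transport, read 6.56 and 4.18 in the PBS pair and 4.47 and 4.06 in the flagellin pair. Igha, the IgA heavy chain, chosen after its values were seen, read 6.99 and 5.46 in the PBS pair and 5.14 and 5.73 in the flagellin pair. Derl3, of the secretory machinery of plasma cells, read 8.28 and 7.55 in the PBS pair and 7.34 and 7.45 in the flagellin pair. In these 3 genes the wild-type PBS array was the highest of the 4, and Jchain and Igha were bright only through it. Of the 12 listed genes, which do not include Igha, 8 were above 0, 2 were past 1.5-fold on each side, and the median was 0.06, or -0.00 after cyclic loess. The higher ones were Pou2af1, a co-activator of B cell genes, at 5.71 and 6.30 in the PBS pair and 5.86 and 6.54 in the flagellin pair, and the B cell gene Ms4a1, dim, at 0.64. Pigr, the epithelial transporter of IgA, was at -0.28.

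Among Toll-like receptors and their co-receptors 1 gene was past 2-fold. Cd14, the co-receptor that passes bacterial lipids to Toll-like receptors, read 7.36 and 6.13 in the PBS pair and 7.99 and 6.99 in the flagellin pair. The 20 Toll-like receptor genes had a median of -0.22 with 16 below 0, and Tlr4 was at -0.50. Among 25 chemokines, Ccl9, which attracts monocytes and dendritic cells, was at 7.98 and 6.84 in the PBS pair and 7.74 and 6.93 in the flagellin pair, Ccl28 of mucosal epithelium differed by -0.65 and Ccl20 by 0.45; the list median was 0.14 over all members (0.00 after cyclic loess) and -0.28 over the bright ones. The 14 NF-kB feedback genes had a median of -0.06 with none past 1.5-fold, and the 24 cytokines one of 0.15 that turned to -0.01 after cyclic loess.

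Genes of neutrophils and red cells leaned higher under PBS. Ngp, a granule protein of maturing neutrophils, read 5.47 and 7.15 in the PBS pair and 8.44 and 6.99 in the flagellin pair. Retnlg, a resistin-like protein of neutrophils, read 5.48 and 6.52 in the PBS pair and 7.28 and 6.73 in the flagellin pair, and S100a8, a subunit of calprotectin, read 5.57 and 6.36 in the PBS pair and 7.40 and 6.82 in the flagellin pair. For these 3 genes the wild-type PBS array was the lowest of the 4. Of 16 neutrophil genes 13 were above 0 (56.3% of all genes were), with a median of 0.44 as deposited and 0.25 after cyclic loess. At least 2-fold higher were 2 (1.34% of all genes were) and at least 1.5-fold higher 5 (5.49%). In the flagellin pair the neutrophil median was -0.52. Prg2, the eosinophil major basic protein, differed by 1.13. All 5 red cell genes, of which 3 were bright, were above 0 (56.3% of all genes were), with a median of 0.97. In the flagellin pair their median was 0.11. Averaged over the list, the level was 5.26 and 6.18 in the PBS pair and 6.24 and 6.29 in the flagellin pair. Slc4a1, the anion exchanger of red cells, read 5.93 and 6.97 in the PBS pair and 7.28 and 7.08 in the flagellin pair. Macrophage genes had a median of -0.09 over 12 (-0.15 after cyclic loess), led by Lyz2, and endothelial genes one of -0.13 over 15, with none past 1.5-fold. T cell, B cell and NK cell markers were nearly all dim, with 2 bright of 26. Further lists held no gene past 2-fold and had small medians, against 0.04 for all genes: -0.03 for complement (-0.14 after cyclic loess), -0.09 for leukocyte adhesion molecules, -0.05 for immediate early genes, -0.11 for tuft cells and ionocytes, and -0.16 for Schwann cells and glia.

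Hormone and stress genes showed 1 group apart. Zbtb16, a transcription factor that glucocorticoids induce, read 6.77 and 8.15 in the PBS pair and 6.81 and 7.95 in the flagellin pair, and was higher in both arrays labelled Duox2-/-. Fkbp5, a chaperone of the glucocorticoid receptor, read 7.76 and 8.75 in the PBS pair and 8.10 and 8.30 in the flagellin pair, and Pdk4, which blocks glucose oxidation, 6.76 and 7.37 in the PBS pair and 7.13 and 6.49 in the flagellin pair. Per1, a clock gene that glucocorticoids also induce, differed by 0.56. Over 15 glucocorticoid-induced and metallothionein genes the median was 0.32, with 4 at least 1.5-fold higher, against -0.32 in the flagellin pair. The other 13 of 15 clock genes besides Per1 and Nr1d1 were below 0, with a median of -0.15 over the list.

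Thyroid hormone responsive genes, of interest since Duox2 serves hormone synthesis in the thyroid, had a median of -0.12 over 12, with none past 1.5-fold. Gpd2, the mitochondrial glycerol phosphate dehydrogenase, was at -0.49, Thrb, a thyroid hormone receptor, at -0.43 and Dio2, the activating deiodinase, at -0.18. Of 21 cell cycle genes 20 were above 0 (56.3% of all genes were), with a median of 0.33 that was 0.21 after cyclic loess. In the flagellin pair the median was -0.17, with 15 of the 21 below 0. Averaged over the list, the level was 6.32 and 6.65 in the PBS pair and 6.70 and 6.57 in the flagellin pair. Mki67, a marker of cycling cells, read 6.97 and 7.61 in the PBS pair and 7.62 and 7.41 in the flagellin pair. Heat shock chaperones had a median of -0.12, with Hsph1 at -0.73, and the unfolded protein response one of -0.14.

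The olfactory neurons themselves differed little. Omp and the other mature neuron markers, all 18 bright, lay between -0.31 and 0.15, with a median of -0.04, or -0.01 after cyclic loess and 0.01 after quantile normalisation. Adcy3, the adenylyl cyclase of odour transduction, read 10.17 and 9.98 under PBS. Immature neuron and progenitor genes had a median of 0.14, with Gap43, a growth cone protein, at 0.25, and the genes of sustentacular cells and Bowman's glands one of -0.19, with 11 of 12 below 0.

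Odorant receptor genes, which each mature neuron expresses singly, leaned higher as a family. Of 1027 receptor genes 777 were above 0 (56.3% of all genes were), and the family median was 0.39 as deposited and 0.24 after cyclic loess. Of the 413 bright ones 72 were at least 2-fold higher (1.13% of bright genes were) and none lower, and 61 were higher after cyclic loess. A receptor dim in the wild-type PBS array counted as bright when any other array reached the level, so these counts depend on the filter. Most receptor genes sit at the dim end of the range, with a median level of 5.32 in the wild-type PBS array and 5.91 in the array labelled Duox2-/-. In the flagellin pair the median level was 5.75 and 6.11, wild type first. The wild-type PBS array was thus the lowest of the 4, and the wild-type flagellin array lay near the PBS array labelled Duox2-/-. The 169 vomeronasal receptors, of which 6 were bright, had a median of 0.63. All 6 bright ones were at least 2-fold higher, which the filter favours in so dim a family. Vmn1r89 read 4.64 and 7.37 in the PBS pair and 4.46 and 5.52 in the flagellin pair. It was bright only through the PBS array labelled Duox2-/-. In the flagellin pair the medians of the families were 0.29 and 0.28.

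The flagellin pair gives the same contrast on a further pair of arrays, with flagellin as the difference in treatment. Over all bright genes the median flagellin difference was -0.12, or -0.03 after cyclic loess, so most of them were lower in that pair. Of the 35 genes lower under PBS, 29 were also lower there, 22 of them by at least 2-fold (0.176% of bright genes passed in both). The median flagellin difference of the 35 was -1.42. Of the 141 genes higher under PBS, 110 were also higher there, 20 of them by at least 2-fold (0.16% in both), with a median of 0.47. Put as a share of each list, the 22 are 62.9% of those lower under PBS and 10.7% of the 206 lower after flagellin (1.65% of bright genes). The 20 are 14.2% of those higher under PBS and 45.5% of the 44 higher after flagellin (0.353%). Across 12471 genes, which are not independent, the differences of the pairs correlated with Pearson's r of 0.53, and of 0.49 after cyclic loess.

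The 20 genes higher in both pairs were 11 olfactory receptors, Vmn1r89 and 8 others: Bpifb9a, Bpifb9b, Bpifb5, Lipf, Ambn, Zbtb16, Dcpp3 and Mup5. The 22 lower in both were Tmprss11a, Tmprss11g, Serpina3n, Chil4, Adh6a, Ifi202b, Cytl1, Col10a1, Krt6a, Krt6b, Krt13, Krt4, Krt5, Gbp4, Ifit3, Iigp1, Gabrp, Gsto1 and Gpx2 and, chosen after their values were seen, Ephx3, Ucma and 2210407C18Rik. Among all 141 genes higher under PBS, the PBS array labelled Duox2-/- stood at least 2-fold from all 3 other arrays in 25 and the wild-type PBS array in 43. Among the 63 that were not receptors these counts were 20 and 8. Among the 35 lower genes the counts were 5 and 3.

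**Figure D5:**
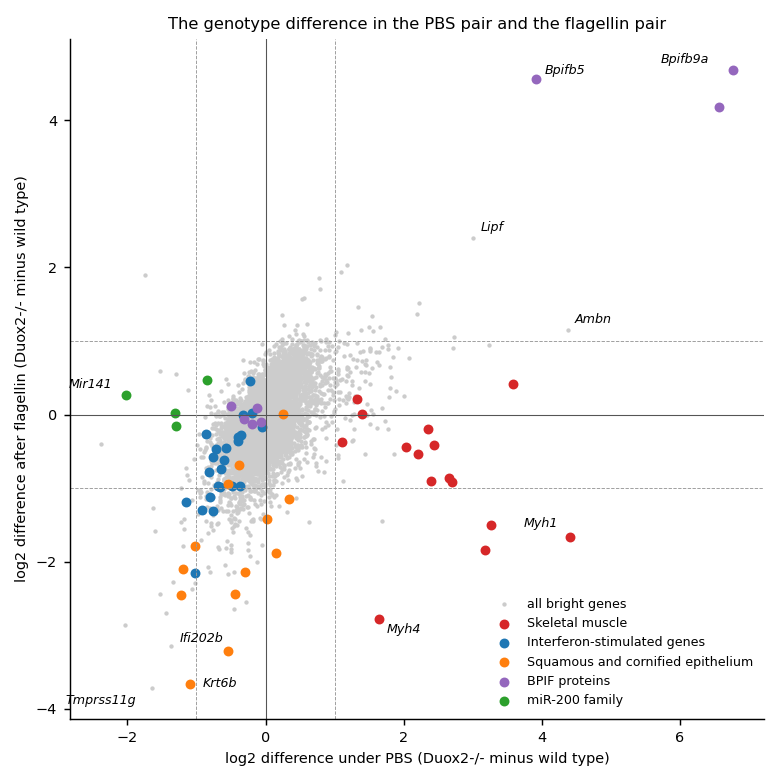
Log2 difference, array labelled Duox2-/- minus wild type, under PBS (x axis) and after flagellin (y axis) for 12471 bright genes (grey) and the bright members of 5 lists (coloured); dashed lines mark 2-fold. The 3 BPIF genes lie far above 0 on both axes, squamous and interferon-stimulated genes mostly below 0 on both, and muscle genes above 0 under PBS and mostly below 0 after flagellin.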

How the data were processed

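Total RNA of nasal septum and turbinate mucosa was measured on 4 arrays, 1 per genotype and treatment. The authors deposited log2 values made with RMA, a background correction, normalisation between arrays and summary per probe set, in Affymetrix Expression Console 1.1, per the submitters' processing notes. The genome build and the annotation version are not given in the sources used here. Background per probe set is not used here, so low values were read as near background.

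Of 35556 probe sets, 21789 were paired with 1 gene, 1621 with several and 12146 with no listed gene; single-gene probe sets were used, and for 999 genes with several the one with the highest mean over 4 arrays. Differences are the PBS array labelled Duox2-/- minus the wild-type PBS array, with no p-value since each group has 1 array, and calls are sizes of 2-fold or 1.5-fold. List counts cover all matched members; 868 of 959 memberships in 60 lists were matched. Genes were named by a rule: the 15 highest and 15 lowest bright genes outside receptor, predicted, antigen receptor and small RNA families, up to 5 bright members per list with the largest difference, up to 12 genes in each direction past 2-fold in both pairs, and Duox2, its relatives and its 5 neighbours on each side. Other list members are given as ends of a range or as examples and were chosen after their values were seen. Members, lists and rules were chosen with earlier results of these data known.

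Alternatives were median centring, quantile and cyclic loess normalisation (limma 3.58.1, R 4.3.3), averaging of probe sets, other filters, and counts without receptors or tissue lists. Counting was tested on simulated data. Sequences are RefSeq's, GRCm38.p6, used also for gene order. Python 3.11.15, pandas 2.3.3, numpy 2.4.6, Biopython 1.88 and matplotlib 3.10.9 were used.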

Additional observations from a re-analysis of the deposited data

Results flagged for a closer look

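Of the bright genes, 6 went past 2-fold in opposite directions in the PBS pair and in the flagellin pair. With 1 array per group the difference between the pairs was not tested. Myh1, of fast muscle, differed by 4.41 under PBS and by -1.67 after flagellin. Ttn, titin, differed by 3.26 and -1.501, and Atp2a1, the calcium pump of fast fibres, by 3.18 and -1.85. Myh4, a further fast myosin heavy chain chosen after its values were seen, differed by 1.65 and -2.78. Ngp, of maturing neutrophils, differed by 1.68 and -1.45. The predicted gene 5430401F13Rik, chosen after its values were seen, differed by -1.75 and 1.90. For Myh1, Ttn and Atp2a1 the PBS array labelled Duox2-/- was the highest of the 4 arrays and the wild-type flagellin array the second. For Myh4 the wild-type flagellin array was the highest, at 7.83, and the PBS array labelled Duox2-/- read 6.15.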

How the results depend on the processing

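The counts kept within 1.5 times of the 141 genes higher and 35 lower under median centring, quantile and cyclic loess normalisation, averaging of probe sets, and leaving out the tissue lists. They moved with the filter, the size and the receptors, where fewer or more genes were counted. The genes higher numbered 267 with no filter, 64 with a filter on the PBS mean, 42 with a level of at least 8, 63 without receptors and 389 at 1.5-fold. The genes lower numbered 19 with the PBS mean, 17 at a level of 8 and 249 at 1.5-fold. Genes higher in both pairs numbered 35 with no filter, 10 with the PBS mean, 10 at a level of 8 and 8 without receptors; genes lower in both numbered 10 with the PBS mean and 11 at a level of 8. Of 303 named genes, 9 moved by more than the robust SD of 0.211 after cyclic loess and 2 after averaging of probe sets, and none changed direction past 2-fold. The settings on both pairs and on bright members were chosen after seeing the data. Probe sets with several genes or none listed were left out of the gene counts. Of 939 bright ones with several genes, 39 were at least 2-fold higher and 5 lower. Of 5018 bright ones with no listed gene, 50 were at least 2-fold higher and 106 lower. Lower ones thus outnumbered higher ones there, the reverse of the gene counts. Signal near background limits the dim genes, and 1 array per group limits every size. No paired analysis was possible because each group has 1 array, so the groups share a single replicate number.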
